A study of Mus musculus with 21 samples.

Results

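The genes described here are 33 genes of sterol and fatty acid synthesis, out of 33861 genes in the count table. They were listed by name as the regulators of sterol-responsive transcription (5 genes), the cholesterol pathway from acetoacetyl-CoA to cholesterol (19 genes) and fatty acid synthesis and desaturation (9 genes). The set was chosen on the measured level of Insig1, whose transcripts were nearly absent from formative stem (FS) cells. Every comparison of FS cells with another group is therefore a description, with no test. All 33 genes were found, and all 33 passed the filter on low counts in every comparison.

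Bulk RNA-seq was made from 21 mouse samples in 6 groups. FS cells, a pluripotent state between naive embryonic stem cells and epiblast stem cells (EpiSCs), were grown in A3XR medium as 2 lines. Samples came from passages 10, 11 and 18 of line 1 and from passages 12, 13 and 16 of line 2. EpiSCs, which carry the name E14 in their descriptions, were grown in AF or in AFX medium and sampled at passages 14, 15 and 16 of each. Each cultured sample held 1000 cells. Epiblasts were collected singly at E5.0 (embryos 1, 2 and 4), E5.5 and E6.0 (embryos 1, 2 and 3 of each). The cell type field of the E6.0 samples reads 6.5. Passages of a line are not separate derivations, so p-values between cultures measure only the spread between these samples. Cell line and medium differ together between FS cells and EpiSCs and cannot be told apart.

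Cells make cholesterol from acetyl-CoA through mevalonate and squalene, and fatty acids through malonyl-CoA. Both sets of enzymes are activated by the sterol regulatory element binding proteins SREBP1 and SREBP2, encoded by Srebf1 and Srebf2. These factors are made as membrane proteins of the endoplasmic reticulum and are carried to the Golgi by SCAP for cleavage. When sterols are plentiful, INSIG1 and INSIG2 hold SCAP in the endoplasmic reticulum, and Insig1 is itself a well known SREBP target. Stearoyl-CoA desaturases, encoded by Scd1 and Scd2, place the first double bond in saturated fatty acids and are SREBP targets as well.

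Total counts per sample ranged from 5827093 to 15916800. A count of 3 corresponded to between 0.171 and 0.561 CPM (counts scaled to library size, with the trimmed mean of M values, TMM, over the 21 samples). Of 7 pluripotent epiblast markers, 6 were above 3 counts in every FS sample and 7 in every sample of the other groups, the exception being Tdgf1, a NODAL coreceptor gene with a lowest FS level of 0.239 CPM. Some members share sequence with other genes, so that their counts are uncertain: the share of 50-base stretches found in another gene was 39.1% for Acat2 (with Acat3), 30.4% for Acaca, 26.5% for Fdft1, 26.2% for Fdps and 25.3% for Idi1. It was 2.17% for Insig1 and 4.56% for Scd1.

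The upstream bases of Insig1 and of Hmgcs1, which encodes the HMG-CoA synthase that opens the mevalonate branch, are shown because the levels of these SREBP target genes parted in FS cells. Capitals mark matches to TCACNCCAC (a form of the SREBP element), CACGTG (an E-box) and CCAAT (the core of an NF-Y site), searched on both strands, of which none overlapped another.
Insig1: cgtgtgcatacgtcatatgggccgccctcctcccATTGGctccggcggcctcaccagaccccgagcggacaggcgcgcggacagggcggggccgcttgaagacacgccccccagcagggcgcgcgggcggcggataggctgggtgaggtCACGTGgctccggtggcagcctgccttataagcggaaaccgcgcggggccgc
Hmgcs1: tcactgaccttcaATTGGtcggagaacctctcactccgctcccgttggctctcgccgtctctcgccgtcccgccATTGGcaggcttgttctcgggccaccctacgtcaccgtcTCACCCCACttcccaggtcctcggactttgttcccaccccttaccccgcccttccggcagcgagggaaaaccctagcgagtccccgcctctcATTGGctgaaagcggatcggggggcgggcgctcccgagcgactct
The Insig1 run is chr5:28071162-28071362 and the Hmgcs1 run chr13:119690101-119690350, both on the plus strand of GRCm38 and taken from RefSeq's GRCm38.p6 promoters. The Insig1 run ends before the gene's first annotated base in GENCODE M21. TCACNCCAC was matched 137 bases before the RefSeq start of Hmgcs1, and no match lay in the 250 bases before that of Insig1, where CACGTG was matched at 101 bases and CCAAT at 216. Of 32851 promoters in the same table, 1.05% held TCACNCCAC in their 250 upstream bases, 6.02% held CACGTG and 33.9% held CCAAT. Of the 33 members, 26 had an entry, with 34 promoters between them: 1 held TCACNCCAC (Hmgcs1), 5 held CACGTG (Dhcr7, Hsd17b7, Insig1, Sc5d and Scap) and 20 held CCAAT in at least 1 promoter. The part of these matches in the FS levels was not tested.

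In FS cells Insig1 (ENSMUSG00000045294, chr5:28071363-28078662, plus strand) was close to the limit of detection while Insig2 was at the level of the other cultures. Line 1 gave 0, 1 and 4 Insig1 counts in passage order, and line 2 gave 0, 1 and 0, so that 5 of the 6 samples lay below the 3-count floor. Insig1 was at 47.3, 48.8 and 35.3 CPM in AF, at 82.7, 97.9 and 110.2 in AFX, at 82.4, 119.6 and 90.8 in E5.0 epiblasts, at 55.4, 38.4 and 37.7 in E5.5 and at 30.1, 28.5 and 46.2 in E6.0. No FS sample came near any other sample. From the 6 FS counts in all, the level per library was 510.3 times higher in AF (95% exact counting interval 234 to 1393), 1119.9 times higher in AFX (514 to 3054) and 407 times higher in E6.0 (186 to 1111). These intervals cover counting error only and pool the samples of a group. They are a description and test nothing, since the set was chosen on these FS counts. Of the 6 counts, 4 came from line 1 passage 18. Without that sample, an alternative added after the data were seen, the ratios were 1262 for AF (349 to 10435), 2770.3 for AFX (766 to 22885) and 1006 for E6.0 (278 to 8318).

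Insig2, the second INSIG gene, was at 7.37 to 11.7 CPM in the 6 FS samples (median 9.15), at 8.40, 10.3 and 8.5 in AF and at 6.76, 6.61 and 9.84 in AFX, all overlapping. Per base of annotated exon, Insig1 made up 1.14% ± 1.59 (SD, n = 6) of the combined Insig1 and Insig2 level in FS cells. It made up 84.3% ± 2.0 in AF, 93.4% ± 0.86 in AFX, 94.1% ± 4.48 at E5.0, 92.5% ± 2.72 at E5.5 and 85.7% ± 1.28 at E6.0 (n = 3 each). Insig1 was thus the main INSIG transcript in all samples but those of FS cells, where it lay at the bottom of the 33 members.

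The genes around Insig1 on chromosome 5 were mostly near 0 in every group. Of the 5 annotated genes on either side, Rbm33 was the only one above 20 CPM, at 150.1 ± 9.92 CPM in FS cells (SD, n = 6), 133 ± 20.1 in AF and 143 ± 8.68 in AFX. Gm26608, a noncoding gene whose start lies 258 bases from that of Insig1 on the opposite strand, had 0 counts over the 6 FS samples against 3 over the 3 AF samples and 31 over the 3 AFX samples, 29 of those in 1 sample. En2, the next gene downstream, was at 0.414 ± 0.323 CPM in FS cells and 0.582 ± 0.188 in AF. Shh, a signalling ligand gene, was at 2.04 ± 3.68 CPM in FS cells and 11.9 ± 4.82 in AF.

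**Figure D1:**
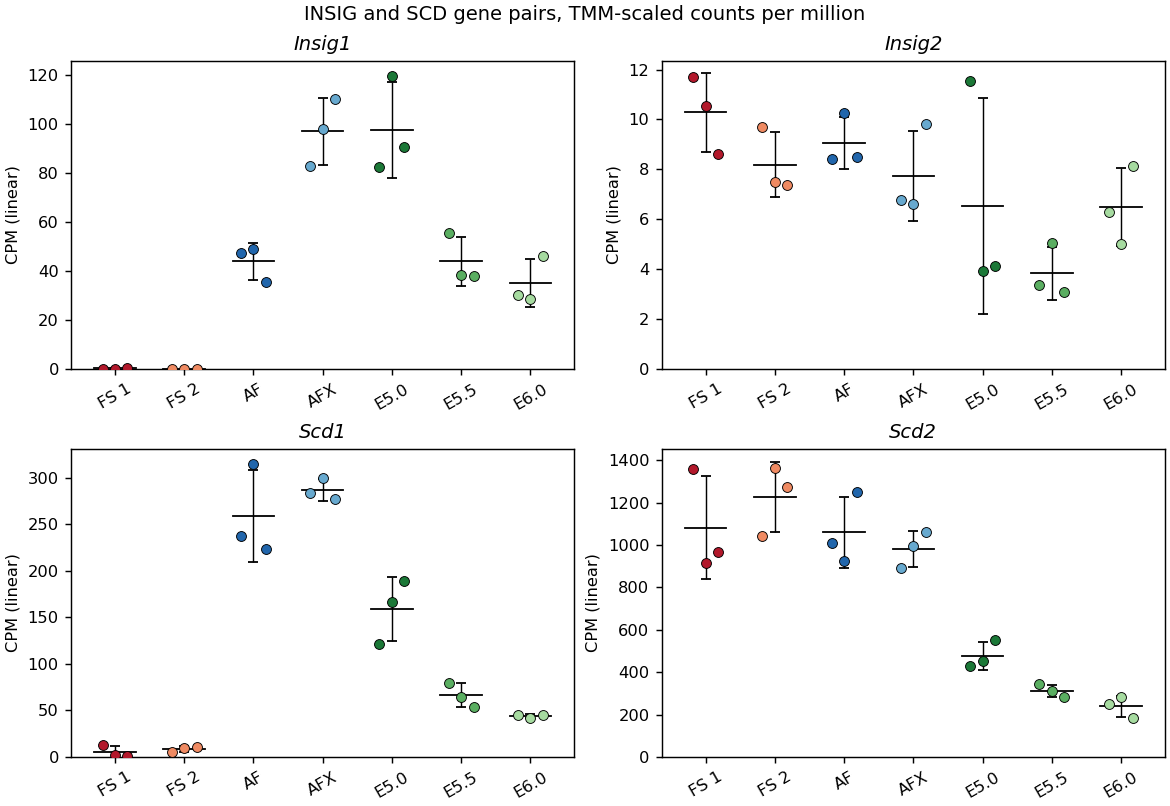
Level of Insig1, Insig2, Scd1 and Scd2 in every sample (points, TMM-scaled CPM on a linear axis starting at 0), by FS line (FS 1 and FS 2), EpiSC medium and epiblast stage, with the mean (line) and SD (bars) of each 3 samples. Insig1 and Scd1 lay near 0 in both FS lines only, whereas Insig2 and Scd2 in FS cells overlapped AF and AFX.

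Scd1 showed the same kind of gap. Its level was 13.1, 2.15 and 1.30 CPM in FS line 1 and 5.37, 9.48 and 10.7 in FS line 2. It was 238, 315 and 224 CPM in AF, 284, 299.9 and 277 in AFX and between 41.7 and 189 in the 9 epiblasts, so that the highest FS sample was below every other sample. The fitted log2 difference of FS cells was -5.19 ± 0.51 (SE) against AF, -5.35 ± 0.51 against AFX and -3.23 ± 0.41 against E5.5 epiblasts. Scd2 was at 914 to 1361 CPM in FS cells (median 1158), at 1009.6, 922 and 1248 in AF and at 889, 996 and 1059 in AFX. Per exon base Scd1 was 0.626% ± 0.366 of the Scd1 and Scd2 sum in FS cells (SD, n = 6), 21.7% ± 5.52 in AF and 24.7% ± 1.88 in AFX. Scd2 had the highest level per exon base of the 33 members in FS cells, AF and AFX.

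The other members in FS cells differed less from the EpiSCs. Leaving Insig1 and Scd1 aside, the log2 differences past the threshold lay between -0.94 ± 0.16 (Pmvk against AF) and 1.30 ± 0.37 (Acss2 against AFX). The counts of FS comparisons here and below use the threshold of the tested comparisons (adjusted p under 0.05, edgeR) as a description only. The set was chosen on Insig1 in these samples, and nothing is read from them. Against AF, 8 members were past that threshold, 2 higher (Acat2 and Acly) and 6 lower (Insig1, Scd1, Pmvk, Mvd, Stard4 and Ebp), where 19.5% of all 16052 genes were (8.86% higher and 10.6% lower). Against AFX there were 12 of 33, with 8.70% of all genes (3.78% higher and 4.92% lower). Those higher in FS cells were Srebf1, Acat2, Tm7sf2, Acaca, Fads1, Fads2, Acly and Acss2, and those lower were Insig1, Srebf2, Sqle and Scd1. Of these, Acss2 stayed past the threshold in 4 of 17 alternatives, and Srebf1 in 9, with losses without any AFX passage for both. Srebf2 was also lost without any AFX passage, and Ebp against AF stayed in 9 of 17. The median log2 difference of the 33 members was -0.13 against AF and 0.16 against AFX, with 0.02 and 0.00 over all genes, and against AFX it was -2.0e-04 without AFX passage 14. Without AF passage 14 or AF passage 15 the count against AF was 5, and without AFX passage 14 or AFX passage 16 the count against AFX was 7.

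Markers of other cell types moved with the culture. Feeder fibroblast markers, 8 genes led by collagens, summed to 219 to 260 CPM in AF, 29.5 to 52.7 in AFX and 15.3 to 45.1 in FS cells. Visceral endoderm markers, 12 genes, summed to 51.9 to 79.7 CPM in AF, 3.74 to 15.5 in AFX and 2.34 to 3.95 in FS cells, where Ttr, Apoa4, Apob, Afp and Hnf4a were at 0. In AF, Apoa4 and Afp were at 0. Of the 12 genes, 4 passed the filter on low counts among the cultures. Of those, Gata4, Gata6 and Sox17 were past the threshold, lower in FS cells than in AF. Whether such cells were present, and their part in these differences, was not tested.

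Acat2 and Acly were the members past the threshold on the higher side against both media. Acat2, which encodes the cytosolic thiolase that makes acetoacetyl-CoA, was at 162, 133 and 185 CPM in FS line 1 and 139, 193 and 147 in line 2, against 110.0, 98.5 and 119 in AF and 65.9, 79.4 and 101 in AFX. Leaving out AF passage 14 or 15 took Acat2 below the threshold against AF. Acat3, with which it shares sequence, was at 24.8 ± 7.14 CPM in FS line 1, 26.0 ± 4.78 in line 2, 18.1 ± 1.82 in AF and 13.8 ± 2.02 in AFX. Acly, which encodes the enzyme that turns citrate into cytosolic acetyl-CoA, was at 459 to 728 CPM in FS cells (median 563), at 438, 414 and 454 in AF and at 323, 363 and 432 in AFX. Neither gene's FS range overlapped AF or AFX, though the lowest FS and the highest AF sample of Acly nearly met. The Acly difference from AF (0.41 on the log2 scale) stayed past the threshold in 7 of 17 alternatives, was lost without any AF passage and was 0.23 with FS line 1 alone. Against AFX, Acly was lost without AFX passage 14 or 15.

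Against E5.5 epiblasts, 32 of the 33 members were past the threshold, 30 higher in FS cells and 2 lower, where 43.8% of all 16614 genes were (23.0% higher and 20.8% lower). The 2 lower genes were Insig1 and Scd1. The median log2 difference was 1.37 over the members and 0.08 over all genes. The sterol methyl oxidase gene Msmo1 was at 153 to 217 CPM in FS cells (median 190.1) and at 27.2, 16.9 and 16.5 in E5.5, and Hmgcs1 was at 490.5 to 688 (median 569) against 129, 91.4 and 119.7. Idi1 was counted among the 30 but stayed past the threshold in 8 of 17 alternatives, and its log2 difference was 1.23 with both FS lines, 0.05 with line 1 alone and 1.87 with line 2 alone. Scap was the member not past the threshold, at 14.5 to 28.4 CPM in FS cells and 22.6, 28.8 and 29.6 in E5.5. Of 11 visceral endoderm markers tested, 8 were lower in FS cells and 1 was higher, and they summed to 28.2 to 66.6 CPM at E5.5. Of 7 pluripotent epiblast markers, 5 were lower and 1 was higher, with sums of 1854 to 2757 CPM in FS cells and 5019 to 5574 at E5.5. Their part in the member differences was not tested. In bulk samples, a change in the share of cells expressing a gene and a change in RNA per cell cannot be told apart.

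**Figure D2:**
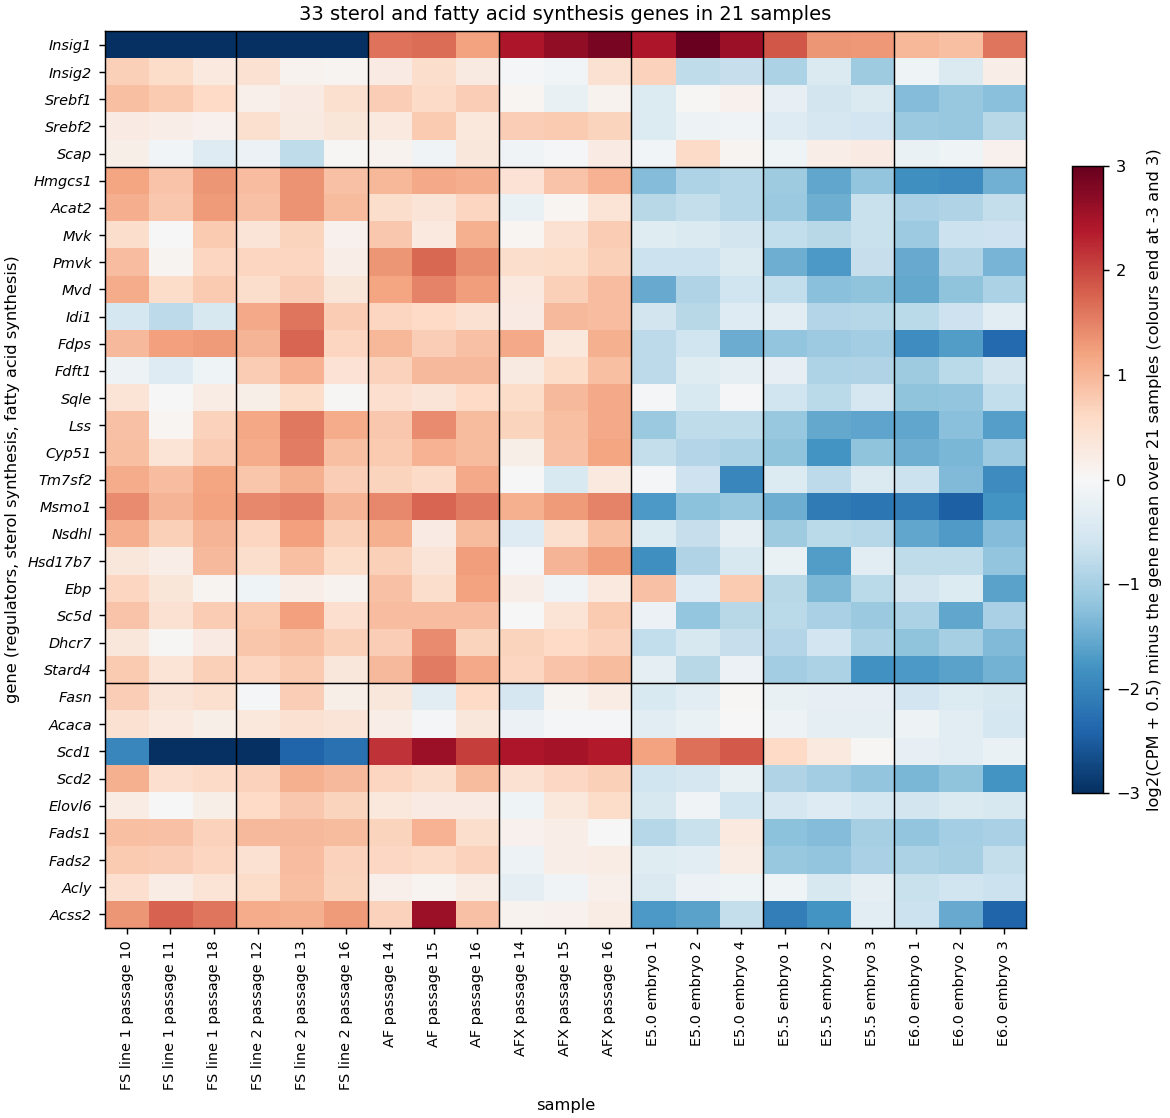
Log2(CPM + 0.5) of the 33 genes (rows: regulators, sterol synthesis, fatty acid synthesis) in the 21 samples (columns), as the difference from each gene's mean over all samples, with colours ending at -3 and 3. Most rows are high in the cultures and low in the epiblasts, while Insig1 and Scd1 are lowest in the 6 FS samples.

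Between the 2 FS lines, 2 members passed the test, both sterol genes. The count depended on the fit: it was 8 with no filter on low counts, 6 with DESeq2, 5 with the 2 lines fitted alone and 4 with a mean of at least 5 CPM. Idi1, which encodes isopentenyl diphosphate isomerase, had 74.4, 61.3 and 75.8 CPM in line 1 against 235, 328 and 181 in line 2. The log2 ratio of line 2 to line 1 was 1.81 ± 0.22 (SE), and edgeR's quasi-likelihood test gave an adjusted p of 0.00031. Fdft1, encoding squalene synthase, had 95.1, 80.8 and 95.3 CPM in line 1 against 179, 217 and 142 in the other line, a log2 ratio of 0.98 ± 0.17 (edgeR adjusted p 0.0047). The lines overlapped for neither gene, and line 2, unlike line 1, overlapped the EpiSCs for both: AF and AFX spanned 127 to 209 CPM for Idi1 and 127 to 206 for Fdft1. Both calls held under every alternative.

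These 2 calls among 33 members compare with 3.85% of all 16052 genes called between the lines (2.65% higher and 1.20% lower in line 2). The median log2 fold change was 0.02 over the members and -0.02 over all genes. Just over the threshold, with ranges that did not overlap, were Elovl6 (0.54 ± 0.15, edgeR adjusted p 0.051), Srebf1 (-0.47 ± 0.13, 0.052) and Dhcr7 (0.61 ± 0.17, 0.058). Insig1 is given no fold between the lines, since its counts were at or under the floor in 5 of 6 samples. Scd1 had a log2 difference of 0.64 ± 0.62 that did not pass (adjusted p 0.66, edgeR). Gm13502, which shares sequence with Idi1, had 2.29 ± 0.107 CPM in line 1 against 11.1 ± 2.75 (SD, n = 3 each), and Ctsb, whose exons overlap 18.3% of those of Fdft1 on the opposite strand, was at 34.7 ± 6.96 and 35.1 ± 5.17. The part of shared reads in the Idi1 difference was not tested.

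Genes of sterol storage and export also differed between the lines. Soat1, which esterifies cholesterol for storage, had 611 ± 102 CPM in line 2 against 193 ± 15.2 in line 1 (log2 fold change 1.66 ± 0.17, edgeR adjusted p 2.2e-05). Of 7 tested genes of the oxysterol-sensing LXR receptors and their targets, the cholesterol exporters Abca1 (-2.92 ± 0.51, 0.0047) and Abcg1 (-2.74 ± 0.28, 2.2e-05) were lower in line 2 and Lpcat3 was higher. Acat1, the mitochondrial thiolase gene, was higher (1.17 ± 0.26, 0.021). By edgeR, 0 of 12 genes of SREBP processing and sterol sensing passed (2 at an unadjusted p under 0.05), 0 of 19 of other fatty acid synthesis (3) and 0 of 9 of fatty acid oxidation (1).

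**Figure D3:**
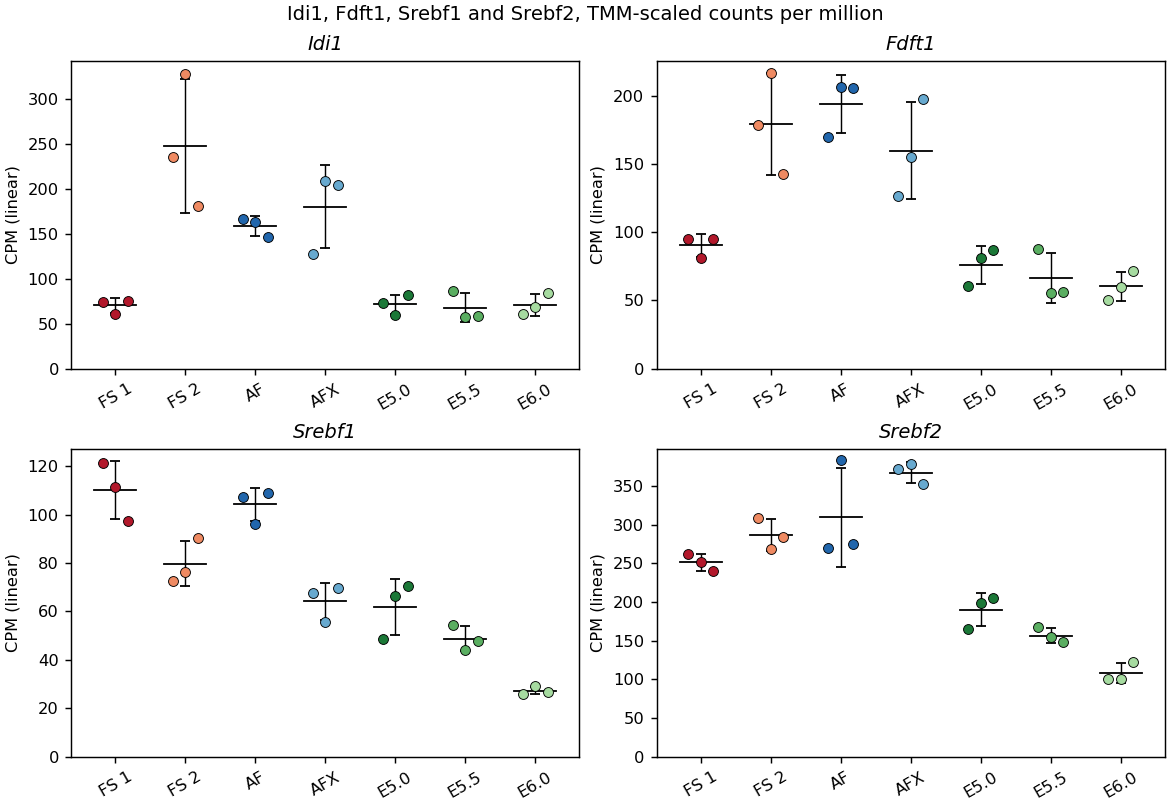
Level of Idi1, Fdft1, Srebf1 and Srebf2 in every sample (points, TMM-scaled CPM on a linear axis starting at 0), by FS line (FS 1 and FS 2), EpiSC medium and epiblast stage, with mean (line) and SD (bars). Idi1 and Fdft1 in FS line 1 lay below every FS line 2, AF and AFX sample, and Srebf1 was lower in AFX than in AF and lowest at E6.0.

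EpiSCs grown in the AF and AFX media were compared with each other. In AFX, Insig1 was higher and 6 members were lower. Insig1 rose by 1.16 ± 0.25 on the log2 scale (SE; edgeR adjusted p 0.011), with every AFX sample above every AF sample. Srebf1 fell, from 107, 96.2 and 109 CPM in AF to 67.5, 55.6 and 69.5 in AFX (-0.69 ± 0.18, adjusted p 0.025). Srebf2 was at 269.9, 383 and 275 CPM in AF and 371, 378 and 352 in AFX and did not pass (0.26 ± 0.13, 0.27). Per exon base, Srebf1 was 30.5% ± 5.39 of the Srebf1 and Srebf2 sum in AF and 18.2% ± 2.22 in AFX (SD, n = 3 each).

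Among the enzymes, Pmvk, encoding phosphomevalonate kinase, fell from 69.1, 91.0 and 72.8 CPM to 39.3, 40.1 and 45.1 (-0.89 ± 0.19, adjusted p 0.010). The fatty acid desaturase genes Fads1 (-0.64 ± 0.13, 0.0071) and Fads2 (-0.54 ± 0.14, 0.022), which act on polyunsaturated chains, fell together, as did the sterol reductase gene Tm7sf2 (-0.86 ± 0.22, 0.024). Acss2, encoding acetyl-CoA synthetase, was at 7.41, 28.6 and 8.5 CPM in AF and 4.80, 4.86 and 5.25 in AFX (-1.57 ± 0.41, 0.029). That difference rested on AF passage 15: without it the log2 fold change was -0.68 (adjusted p 0.13).

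The 7 calls compare with 8.73% of all 16052 genes called (4.30% higher and 4.42% lower in AFX), and the median log2 fold change was -0.27 over the members against 0.01 over all genes. Calls for Insig1, Pmvk and Fads1 held under every alternative. Without AF passage 16, AFX passage 14 or AFX passage 15 the count was 4. With 1 sample left out, the calls lost were Srebf1 without AF passage 14, AF passage 16 or AFX passage 15 (adjusted p 0.059 to 0.11), Tm7sf2 without AF passage 16, AFX passage 14 or AFX passage 15 (0.060 to 0.11), Fads2 without AF passage 16 or AFX passage 14 (0.058 to 0.082), and Acss2 also without each AFX passage (0.076 to 0.096). Acss2 and Tm7sf2 were also lost with the 2 groups fitted alone.

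Outside the members, the triglyceride synthesis gene Dgat1 (log2 fold change 1.07 ± 0.23, edgeR adjusted p 0.011) and Rnf139, a sterol-sensing ubiquitin ligase gene (0.63 ± 0.18, 0.042), were higher in AFX. The elongase gene Elovl1 (-1.16 ± 0.22, 0.0060) and Lpcat3, a phospholipid remodelling gene (-0.91 ± 0.21, 0.015), were lower. By list, where 8.73% of all genes passed, 0 of 11 other sterol synthesis genes did (edgeR, with 2 at an unadjusted p under 0.05), 3 of 12 in SREBP processing (1 higher, 2 lower), 2 of 14 in sterol transport (both lower), 1 of 7 in the LXR list (lower), 4 of 19 in other fatty acid synthesis (1 higher, 3 lower) and 0 of 9 in fatty acid oxidation (1 at an unadjusted p under 0.05). Of 7 feeder fibroblast markers tested, 5 were lower in AFX and 1 was higher. Visceral endoderm markers (12 genes) summed to 51.9 to 79.7 CPM in AF and 3.74 to 15.5 in AFX, with Apoa4 and Afp at 0 in both. Of 4 tested, Gata4, Gata6 and Sox17 passed, all lower in AFX. Whether these cell types were present, and their part in the member differences, was not tested.

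In the epiblast, 4 of 9 fatty acid genes and 1 of 19 sterol genes were lower at E5.5 than at E5.0, where 3.75% of all 14228 genes were. At E6.0 it was 5 of 9 and 7 of 19, where 11.6% of all genes were lower than at E5.0 (edgeR). Several of these calls were lost without single embryos, as given for each stage. Scd1 fell from 121, 167 and 189 CPM at E5.0 to 80.0, 64.6 and 54.0 at E5.5 and to 44.5, 41.7 and 45.5 at E6.0. Its log2 fold change from E5.0 was -1.31 ± 0.18 at E5.5 (SE; edgeR adjusted p 0.0014) and -1.92 ± 0.18 at E6.0 (9.9e-06). No stage overlapped another for Scd1. Insig1 fell by 1.20 ± 0.23 to E5.5 (0.0086) and by 1.55 ± 0.23 to E6.0 (0.00038) on the log2 scale, and Scd2 by 0.65 ± 0.15 (0.019) and 1.07 ± 0.15 (0.00021). The E5.5 and E6.0 comparisons share the E5.0 embryos.

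Between E5.0 and E5.5, 6 members passed, all lower, where 6.82% of all 14228 genes passed (3.07% higher and 3.75% lower). Beside Scd1, Insig1 and Scd2 these were Fads2 (-1.02 ± 0.17, edgeR adjusted p 0.0031), Fads1 (-0.91 ± 0.25, 0.043) and Stard4, encoding a cholesterol transfer protein (-0.89 ± 0.25, 0.049). Fads1 was at 49.4, 56.6 and 111 CPM in E5.0 embryos 1, 2 and 4 and at 38.4, 36.0 and 45.0 at E5.5, so that embryo 4 stood apart: without it the log2 fold change was -0.46 (adjusted p 0.13). Without E5.0 embryo 4 or E5.5 embryo 3 the count of members was 3, and without E5.5 embryo 2 it was 2. The Scd1 and Fads2 calls held under every alternative. Insig1 was lost without E5.5 embryo 2 (0.051), Scd2 without that embryo, E5.5 embryo 3 or E5.0 embryo 4 (0.064 to 0.080), Fads1 also without any E5.5 embryo (0.083 to 0.16), and Stard4 without any embryo but E5.0 embryo 2 (0.079 to 0.14). Fads1 and Stard4 were also lost with the 2 stages fitted alone.

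Between E5.0 and E6.0, 15 members passed, all lower, against 21.8% of all genes (10.2% higher and 11.6% lower). The median log2 fold change was -0.65 over the members and -0.02 over all genes. The regulators Srebf1 (-1.24 ± 0.17, edgeR adjusted p 0.00022) and Srebf2 (-0.88 ± 0.12, 0.00023) were among them. Srebf1 was at 48.7, 66.4 and 70.4 CPM at E5.0 and 26.1, 29.1 and 26.9 at E6.0, and Srebf2 at 165, 199 and 205 against 101, 100.3 and 123. Neither overlapped between the stages. Insig2 (-0.08 ± 0.46, 0.92) and Scap (-0.36 ± 0.22, 0.26) did not pass.

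The sterol enzymes that fell from E5.0 to E6.0 were Hmgcs1 (-0.76 ± 0.17, edgeR adjusted p 0.0062), Sqle, the squalene epoxidase gene (-0.93 ± 0.16, 0.00094), Lss, the lanosterol synthase gene (-0.69 ± 0.20, 0.025), and Msmo1, Nsdhl and Ebp of the later steps, together with Stard4 (-1.27 ± 0.25, 0.0027). Nsdhl, encoding a sterol dehydrogenase, went from 22.1, 18.1 and 24.1 CPM to 9.72, 8.69 and 11.8 (-1.16 ± 0.23, 0.0030). The fatty acid genes were Scd1, Scd2, Fads1, Fads2 and Acly. Fasn and Acaca, the fatty acid synthase and acetyl-CoA carboxylase genes, did not pass, with log2 differences of -0.32 ± 0.11 (0.051) and -0.23 ± 0.12 (0.19). With 1 embryo left out, the call was lost for Ebp without any but E5.0 embryo 2, for Lss without E5.0 embryo 2 or 4 or E6.0 embryo 1 or 3, for Msmo1 without E5.0 embryo 2 or 4 or E6.0 embryo 1 or 2, and for Fads1 without E5.0 embryo 4 or any at E6.0 (adjusted p 0.061 to 0.17). Ebp and Fads1 were also lost with these stages fitted alone.

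Between E5.5 and E6.0 only Srebf1 (-0.85 ± 0.17, edgeR adjusted p 0.012) and Srebf2 (-0.56 ± 0.12, 0.021) passed, 2 members where 4.43% of all genes did (1.89% higher and 2.54% lower). Srebf1 was at 54.4, 44.2 and 47.7 CPM at E5.5, and Srebf2 at 167, 154 and 148, above every E6.0 embryo. The count was 0 without E5.5 embryo 1, E6.0 embryo 1 or E6.0 embryo 2, each with 6 members at an unadjusted p under 0.05 (edgeR), and 1 without E5.5 embryo 2 or E6.0 embryo 3. With all embryos, DESeq2 called 3 members, the fit with no filter 6 and the 2 groups alone 5. In the fits without 1 embryo that lost them, the adjusted p was 0.053 to 0.061 for Srebf1 and 0.071 to 0.13 for Srebf2.

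**Figure D4:**
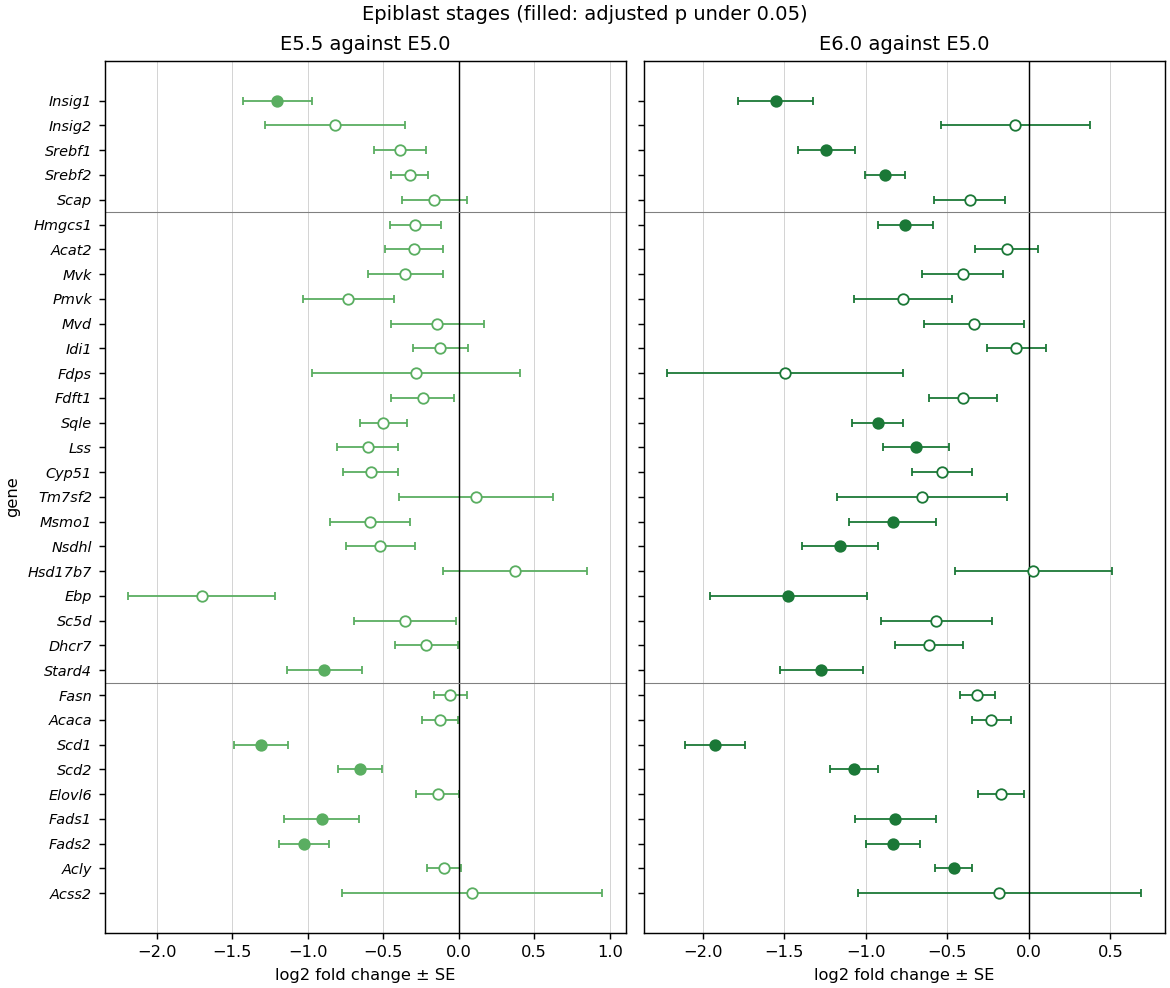
Log2 fold change (points) with SE (bars) of the 33 genes at E5.5 and at E6.0 against E5.0 epiblasts, 3 embryos a stage, with filled points at an adjusted p under 0.05 (edgeR). All filled points are below 0: 6 genes at E5.5 and 15 at E6.0.

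Genes of sterol uptake and storage also changed between the stages. Soat1 (log2 fold change -1.24 ± 0.12, SE; edgeR adjusted p 0.00016), Npc2 (-0.83 ± 0.20, 0.023) and Scarb1 (-0.81 ± 0.19, 0.023), genes of cholesterol storage, lysosomal export and lipoprotein uptake, were lower at E5.5 than at E5.0. At E6.0 against E5.0, Gramd1b (-1.71 ± 0.25, 0.00027) and Cpt1a, the gateway enzyme of mitochondrial fatty acid oxidation (-2.36 ± 0.30, 8.5e-05), were lower, and Vldlr (2.21 ± 0.60, 0.019), Acsl4 (1.13 ± 0.18, 0.00063) and Abcg1 (1.13 ± 0.30, 0.017) were higher. At E6.0 against E5.5, Cpt1a was lower (-1.93 ± 0.29, 0.0018), and Acadl (0.89 ± 0.22, 0.034) and Acsl4 (0.85 ± 0.18, 0.016) were higher.

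By list, at E6.0 against E5.0, where 21.8% of all genes passed (10.2% higher and 11.6% lower), the genes past the threshold were 1 of 11 in other sterol synthesis (lower), 2 of 12 in SREBP processing (both higher), 9 of 13 in sterol transport (3 higher, 6 lower), 2 of 6 in the LXR list (1 each way), 5 of 19 in other fatty acid synthesis (2 higher, 3 lower) and 3 of 9 in fatty acid oxidation (1 higher, 2 lower).

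Visceral endoderm markers, genes of the layer that surrounds the epiblast, moved with these stages. The 12 genes summed to 257 to 775 CPM at E5.0, 28.2 to 66.6 at E5.5 and 7.55 to 11.7 at E6.0, and all 9 that were tested were lower at E6.0 than at E5.0, 8 past the threshold. Cubn, the cubilin gene, was at 364 ± 226 CPM at E5.0 and 1.32 ± 0.243 at E6.0 (SD, n = 3 each). Extraembryonic ectoderm markers, 7 genes, summed to 11.8 to 51.8 CPM at E5.0 and 2.89 to 10.2 at E6.0. The part of these cells in the fall of the members was not tested.

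Per length of annotated exon, Scd2, Acly and Fasn were among the first 4 members in FS cells and in E6.0 epiblasts. In FS cells the mean level was highest for Scd2 (211 CPM per kb ± 37.1, SD, n = 6), then Hmgcs1 (127 ± 19.99), Acly (109 ± 17.5) and Fasn (108 ± 22.6), and Acly and Fasn did not differ beyond their spread. In E6.0 epiblasts Fasn led (57.2 ± 3.27, SD, n = 3), followed by Acly (47.9 ± 1.18) and Scd2 (43.6 ± 8.97). Insig1 was the lowest member in FS cells, at 0.030 ± 0.041 CPM per kb, and Acss2 the lowest at E6.0, at 0.14 ± 0.11.

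In the EpiSC cultures most members were higher than in E6.0 epiblasts. In AF 29 of 33 members passed, all higher, where 35.2% of all 16614 genes passed (18.1% higher and 17.1% lower). In AFX 28 passed, all higher, where 32.8% did (17.1% higher and 15.8% lower). The median log2 fold change of the members was 1.83 in AF and 1.65 in AFX, against 0.08 and 0.09 over all genes. Both comparisons use the same 3 E6.0 embryos. Feeder fibroblast markers summed to 9.46 to 14.5 CPM at E6.0, against 219 to 260 in AF and 29.5 to 52.7 in AFX, with 5 of 7 tested past the threshold in AF (all higher) and 4 in AFX (3 higher, 1 lower). Visceral endoderm markers summed to 7.55 to 11.7 CPM at E6.0, below the 51.9 to 79.7 of AF. Of 11 tested, 3 were higher in AF (Gata4, Gata6 and Sox17) and 1 was lower (Apoa4), while 0 were higher and 4 lower in AFX. Pluripotent epiblast markers summed to 5595 to 7132 CPM at E6.0, 1212 to 1803 in AF and 1765 to 2188 in AFX, with 5 of 7 lower in each medium. The part of these in the member differences was not tested.

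Msmo1 and Fdps were among the members with the highest fold changes in both media; in AF, Fdps and Acss2 did not differ beyond their SE. Msmo1 was at 206, 256 and 224 CPM in AF and 159, 183 and 215 in AFX, against 17.2, 13.3 and 21.4 in E6.0, a log2 fold change of 3.73 ± 0.22 in AF (SE; edgeR adjusted p 9.2e-11) and 3.44 ± 0.22 in AFX (2.9e-10). Fdps, the farnesyl diphosphate synthase gene, was at 3.44 ± 0.41 (1.5e-06) and 3.46 ± 0.41 (1.8e-06), from levels under 1 CPM in all 3 E6.0 embryos. Its counts are uncertain, since 26.7% of its annotated exon bases are shared with the gene model Gm43738 on the same strand. Hmgcs1 rose by 2.79 ± 0.19 (3.8e-10) and 2.51 ± 0.18 (2.0e-09) and Stard4 by 2.85 ± 0.21 (1.8e-09) and 2.44 ± 0.21 (1.7e-08).

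Of the 19 sterol genes, 18 passed in AF and 18 in AFX. For the mevalonate kinase gene Mvk the log2 fold change was 1.57 ± 0.24 in AF (SE; edgeR adjusted p 2.8e-05), for Pmvk 2.78 ± 0.25 (2.6e-08) and for the decarboxylase gene Mvd 2.57 ± 0.24 (6.2e-08). Of the enzymes after squalene, Sqle had 1.54 ± 0.17 (7.6e-07), Lss 2.59 ± 0.28 (1.5e-06) and the lanosterol demethylase gene Cyp51 2.24 ± 0.26 (2.1e-06). Nsdhl had 2.37 ± 0.27 in AF (1.0e-06), and the other late genes Hsd17b7, Ebp, Sc5d, Dhcr7 and Tm7sf2 lay between 1.80 and 2.18 in AF and between 1.01 and 1.86 in AFX. Idi1 did not pass, with 1.16 ± 0.51 in AF (edgeR adjusted p 0.089) and 1.35 ± 0.51 in AFX (0.053). Its levels did not overlap, at 167, 163 and 146 CPM in AF and 127, 209 and 205 in AFX against 60.4, 68.7 and 84.1 at E6.0. This fit took the 2 FS lines, which differed for Idi1, as 1 group, and their part in its SE was not tested. Of the 9 fatty acid genes, 9 passed in AF and 7 in AFX. The elongase gene Elovl6 had 0.76 ± 0.19 in AF (0.0033) and 0.77 ± 0.19 in AFX (0.0033). The log2 fold changes of the fatty acid genes reached 3.40 ± 0.60 in AF (Acss2, 0.00016) and 2.72 ± 0.49 in AFX (Scd1, 0.00056). The Acss2 value moved with single libraries: in AF it was 2.51 without AF passage 15 and 4.10 without E6.0 embryo 1, and in AFX 1.84 ± 0.59 (0.021) with all samples and 2.54 without E6.0 embryo 1. Fasn had 0.74 ± 0.22 in AF (0.015) and 0.45 ± 0.22 in AFX (0.13), and Acaca 0.50 ± 0.12 (0.0025) and 0.25 ± 0.12 (0.11). Fasn lost its AF call without AF passage 16 (0.53, 0.088) or E6.0 embryo 1 (0.70, 0.052).

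Among the regulators, Srebf1 and Srebf2 were higher than in E6.0 epiblasts in both media, by 1.93 ± 0.18 and 1.52 ± 0.13 in AF (edgeR adjusted p 3.9e-08 and 2.4e-08) and 1.24 ± 0.17 and 1.78 ± 0.13 in AFX (1.5e-05 and 2.6e-09). Insig1 had 0.33 ± 0.25 in AF (0.33) and 1.48 ± 0.25 in AFX (0.00014), and the medium comparison above tests that difference. Insig2 and Scap passed in neither. In AFX the calls of Ebp, Acss2 and Tm7sf2 were lost without 1 of several libraries. Ebp was lost without AFX passage 14, AFX passage 16, E6.0 embryo 1 or E6.0 embryo 3 (adjusted p 0.052 to 0.20) and with no filter on low counts, Acss2 without E6.0 embryo 2 or 3 (0.078 and 0.11) and Tm7sf2 without E6.0 embryo 3 (0.072).

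**Figure D5:**
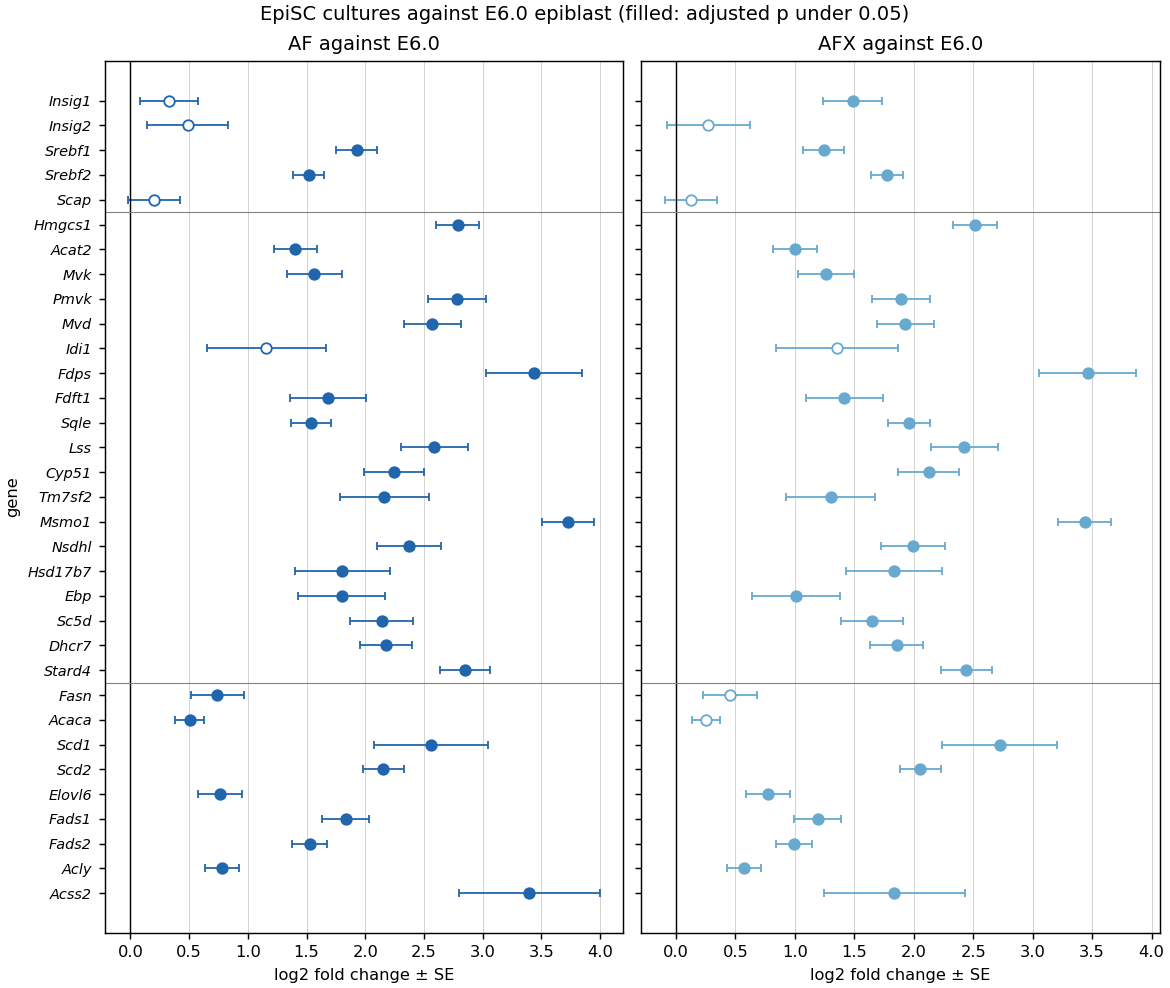
Log2 fold change (points) with SE (bars) of the 33 genes in AF and in AFX cultures against E6.0 epiblasts, 3 samples a group, with filled points at an adjusted p under 0.05 (edgeR). All points are above 0 and 29 (AF) and 28 (AFX) are filled. The 2 panels share the E6.0 embryos.

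Outside the members, the acetoacetyl-CoA synthetase gene Aacs was higher in both media (log2 fold change 3.38 ± 0.63 in AF, edgeR adjusted p 0.00072, and 3.47 ± 0.64 in AFX, 0.00072), as was Lpin1, a gene of triglyceride synthesis (2.49 ± 0.26, 2.6e-07, and 2.01 ± 0.26, 5.2e-06). Pltp, the phospholipid transfer protein gene, was also higher in both (2.55 ± 0.40, 5.3e-05, and 1.63 ± 0.40, 0.0036). Hadhb, an enzyme of fatty acid oxidation, was lower in both (-0.78 ± 0.21, 0.0068, and -1.02 ± 0.21, 0.0010). By list, where 35.2% of all genes passed in AF and 32.8% in AFX, the sterol transport genes passed in 8 of 14 in AF, all higher, and in 9 of 14 in AFX, 8 higher and 1 lower. In SREBP processing 3 of 12 were higher and 2 lower in AF, and 3 higher and 1 lower in AFX. In fatty acid oxidation 2 of 9 were higher and 2 lower in AF, and 0 higher and 1 lower in AFX. In other fatty acid synthesis 8 of 19 were higher and 0 lower in AF, and 7 higher and 1 lower in AFX. In other sterol synthesis 3 of 11 were higher and 1 lower in AF, and 4 higher and 1 lower in AFX. In the LXR list 3 of 7 were higher and 2 lower in AF, and 1 higher and 1 lower in AFX. Cultured and embryonic samples differ in collection and cell number as well as in cell state, and these cannot be told apart.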

How the data were processed

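RNA-seq of 21 mouse samples was analysed from 1 table of raw gene counts deposited by the authors. Per the submitters' processing notes, Trim Galore, TopHat2 2.1.0 and featureCounts 1.5.0 were used on mm10. The annotation and the strand setting are not given in the sources used here. RNA was total RNA taken up with a PicoPure kit, per the labels' protocols.

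Counts were tested with edgeR 4.0.16 in R 4.3.3 (filterByExpr, TMM scaling, robust quasi-likelihood F-test, two-sided, Benjamini-Hochberg over all genes tested, threshold 0.05). Cultured samples, epiblasts, or all 21 samples entered the fit according to the comparison. Levels are TMM-scaled CPM. Exon lengths, coordinates and shared 50-base stretches come from GENCODE M21 (GRCm38). The tests were also run on simulated counts with known changes, and the outcome is not reported here. Alternatives were DESeq2 1.42.0 and its size factors, no filter, the 2 groups alone, a mean of at least 5 CPM, FS lines apart or alone, the replicate block and each sample left out.

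The 33 members and the other 10 gene lists were chosen with earlier results of these data known. Named were all members and, from the 6 other pathway lists, the genes past the threshold with at least 10 CPM in the higher group, at most 3 higher and 3 lower, ranked by log2 fold change, plus 5 genes either side of Insig1. Some genes that this rule names are not reported here. Acat3, Gm13502, Ctsb, Gm43738, Tdgf1 and Cubn, Lpcat3 in the FS lines, and markers named as at 0 or past the threshold, were chosen after their values were seen. Of 146 listed genes, 144 were in the table. Of 33861 genes, 33683 matched GENCODE M21. Depth was 5827093 to 15916800 counts per sample.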

Additional observations from a re-analysis of the deposited data

Results flagged for a closer look

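Within the 6 FS samples, each member's highest and lowest value was compared with the rest by Dixon's test, and 2 of 33 genes had a sample standing apart. Chance gives about 1 in 20, and 2 of 33 is near that. Insig1 was at 0.325 CPM in FS line 1 passage 18 (4 counts), against 0 to 0.120 in the other 5 samples. These values, at 0 to 4 counts, were used to choose the set and are given as a description only. Fads1 was at 146 CPM in the same sample, against 167 to 178 in the others.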

How the results depend on the processing

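No called member changed direction under the alternatives run; the direction of members not called was not tabulated, and the median of the 33 between the FS lines ranged from -0.14 to 0.09 with 1 sample left out. Of 89 calls of members in the tested comparisons, 70 held under all alternatives run. Apart from the replicate block and the fits without 1 sample, which follow, counts of members called that moved by more than 1.5 times were, between the FS lines (2), 6 with DESeq2, 8 with no filter, 4 with a mean of at least 5 CPM and 5 with the 2 groups alone, and, for E6.0 against E5.5 (2), 6 with no filter and 5 with the 2 groups alone; the cause was not tested. With each sample left out in turn the counts were 4 to 8 for AFX against AF, 2 to 3 between the FS lines, 2 to 8 for E5.5 against E5.0, 0 to 2 for E6.0 against E5.5, 11 to 15 for E6.0 against E5.0, 28 to 29 for AF and 25 to 28 for AFX against E6.0, 5 to 8 for FS against AF, 7 to 11 against AFX and 30 to 32 against E5.5. Between AF and AFX, same-numbered samples had correlations of their deviations of -0.204, -0.152 and 0.297. Samples of unlike number had -0.39 to 0.415. With 3 samples a group, these values cannot settle whether the numbers pair the samples. With the number as a replicate block, the counts moved from 7 to 4 for AFX against AF and from 6 to 2 for E5.5 against E5.0. They were 3 for E6.0 against E5.5 and 11 for E6.0 against E5.0. The calls lost under the block were Acss2, Fads2 and Tm7sf2 in the first, Insig1, Scd2, Fads1 and Stard4 in the second, and Acly, Ebp, Fads1, Lss and Msmo1 at E6.0 against E5.0. Groups of 3 samples (6 in FS) and a floor of 3 counts limit low genes such as Fdps and Acss2.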
